A study of Mus musculus with 24 samples.

Results

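The genes described here are the 316 genes of mouse chromosome 6 whose mean level over all 24 arrays, as log2(intensity + 16), lay above 8.5. They were chosen from 726 chromosome 6 genes on the array, and each gene was read from the probe set with its highest mean. Across all chromosomes, 5970 of 12394 genes passed the same level. The question was how far these genes, as a group and along the chromosome, stood above or below the rest of the genome in Hedgehog-driven mouse medulloblastomas and in cell lines grown from such tumors.

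The study profiled whole cerebellum of wild type mice at P6 (postnatal day 6, 2 arrays) and in the adult (1 array), medulloblastoma of adult Ptch1 mutant mice (MB, 3 arrays), and 3 cell lines called SMB21, SMB55 and SMB56. The lines came from spontaneous tumors of Ptch+/- mice and grew as neurospheres in DMEM/F12 with B27. Parental cells were on 4, 2 and 2 arrays for SMB21, SMB55 and SMB56. GF cells, on 1 array per line, had been kept for more than 3 weeks with EGF at 20 ng/mL, bFGF at 20 ng/mL and heparin, and RAS cells, on 3, 2 and 2 arrays, were RAS transformed, with no RAS allele given in the labels. All tumors and lines thus carry the Ptch1 mutant background, the cerebella do not, and the GF and RAS cells are derived from the same 3 lines as their parental controls. Replicates are named as biological in the sample titles, with no word on the animals or cultures behind them. Every p-value below therefore measures the spread between these samples. In comparisons with tissue each parental line entered as the mean of its arrays, so those p-values leave out the spread between arrays of a line. The second P6 array has an age label that differs from its title, and was grouped by the title. The series sets SMB cells against tumors and normal cerebellum, and then against GF and RAS cells, in a study of RAS/MAPK activation and resistance to inhibition of Smo.

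Ptch1 is the receptor that holds Smo, the signal transducer of the Hedgehog pathway, inactive until a ligand binds. Loss of Ptch1 frees Smo, and granule neuron precursors of the cerebellum, the cells in which this medulloblastoma arises, then keep dividing. Chromosome 6 carries Smo itself and Atoh1, the transcription factor that marks these precursors and keeps them dividing, as well as Ccnd2 (cyclin D2), Hk2 (hexokinase 2), Foxm1, Ezh2 and other genes that dividing precursors use. As general background, when cells gain or lose a copy of a chromosome, the genes on it tend to be expressed together at a higher or lower level. DNA was not measured in these samples, so an expression shift along a chromosome is given here as expression only.

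Smo and Atoh1 are the members through which chromosome 6 touches the pathway most directly, so the 250 bases before their start sites are shown. They come from RefSeq (GRCm38.p6), lie on the + strand at chr6:29735247-29735496 for Smo and chr6:64728875-64729124 for Atoh1, and are printed 5′ to 3′ with motif matches in capitals.
Smo promoter: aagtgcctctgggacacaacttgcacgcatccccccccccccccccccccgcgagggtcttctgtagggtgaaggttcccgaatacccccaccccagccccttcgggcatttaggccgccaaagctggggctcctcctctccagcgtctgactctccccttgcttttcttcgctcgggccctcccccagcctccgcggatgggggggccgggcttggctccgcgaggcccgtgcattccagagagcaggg
Atoh1 promoter: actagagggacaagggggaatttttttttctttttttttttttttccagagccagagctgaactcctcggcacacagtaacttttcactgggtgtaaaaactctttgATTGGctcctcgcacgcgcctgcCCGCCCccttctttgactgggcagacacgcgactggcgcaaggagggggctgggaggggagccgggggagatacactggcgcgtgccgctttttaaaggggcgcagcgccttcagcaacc
The Smo window was 68.4% G and C and held none of the 6 motifs searched. The Atoh1 window was 55.6% G and C and held the letters of NF-Y and of Sp1, each on the opposite strand. A RefSeq promoter was found for 281 members, for 4668 genes above the level on other chromosomes, and for 27025 genes in all. Searched on both strands, the Sp1 letters GGGCGG were in 61.9% of the members' windows, in 64.4% of the windows of other genes above the level and in 32.9% of all windows, and the NF-Y letters CCAAT were in 35.2%, 37.6% and 34.5%. The E-box letters CAGATG were in 8.54%, 8.505% and 14.5%, the AP-1 letters TGACTCA in 2.49%, 2.38% and 4.43%, the TATA box letters TATAAA in 7.12%, 5.53% and 13.0%, and the Gli letters GACCACCCA in 0 of 281 member windows and in 0.129% and 0.211% of the others. The members' windows thus looked like those of other well expressed genes: G and C made up 59.8% of them, 61.0% of those of other genes above the level and 53.0% of all. The match of a motif is a description of the letters only.

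The arrays were alike in overall brightness, with median intensities from 188.8 to 245.1. The tissue labels could be checked against cell type markers, and in bulk samples fewer cells of a type and less RNA per cell cannot be told apart. The mean log2 level of 6 granule neuron precursor markers was 11.36 to 11.54 in P6, 11.90 to 12.10 in the tumors and 10.23 to 11.59 in parental lines. It was 7.80 to 7.97 in SMB21 and SMB56 GF cells and 6.93 to 8.58 in RAS cells, whereas SMB55 GF cells were at 10.20. The 4 Purkinje cell markers were at 13.00 to 13.05 in P6 and at 6.67 to 7.41 in tumors, and the 4 astrocyte markers at 12.24 to 12.30 and 7.51 to 7.89. The 8 microglia and macrophage markers were at 9.00 to 9.46 in P6, 10.41 to 10.99 in tumors and 5.59 to 5.79 in parental lines, where 6 to 8 of the 8 were below 6. These cell types therefore differ between the groups compared, and their part in the chromosome 6 shifts was not tested. No 2 libraries were identical, but the 2 SMB56 parental arrays differed more than any other pair within a parental line (SD of their difference over all genes 0.81, against 0.16 for the P6 pair), and SMB21 parental replicate 1 stood apart from the other 3 (0.59 to 0.61, against 0.19 to 0.32 among them).

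In all 3 tumors chromosome 6 stood above every other chromosome. A shift is the median log2 difference of the 316 genes from the mean of the P6 arrays, less the median difference of all 5970 genes above the level in the same array. The shift was 0.44 in tumor 1, 0.67 in tumor 2 and 0.33 in tumor 3 (mean 0.48 ± 0.17, SD, n = 3), which correspond to 1.35-fold, 1.59-fold and 1.25-fold. Over all 726 chromosome 6 genes, with no level set, the mean shift of the tumors was 0.15. The medians of the other 19 chromosomes lay between -0.11 and 0.08 in tumor 1, between -0.16 and 0.08 in tumor 2 and between -0.09 and 0.08 in tumor 3. The shift was carried by most genes rather than a few: 81.0%, 79.7% and 76.3% of the members were above the centred P6 mean in tumors 1, 2 and 3, against 48.3%, 48.3% and 48.5% of the genes on other chromosomes. The adult wild type cerebellum had a chromosome 6 shift of 0.03, with other chromosomes from -0.11 to 0.10. Against the adult array in place of P6, the tumors were at 0.39, 0.61 and 0.28, again highest of the 20 chromosomes in each. Since the members' shifts against P6 define the set described, these values are a description and were not tested.

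**Figure D1:**
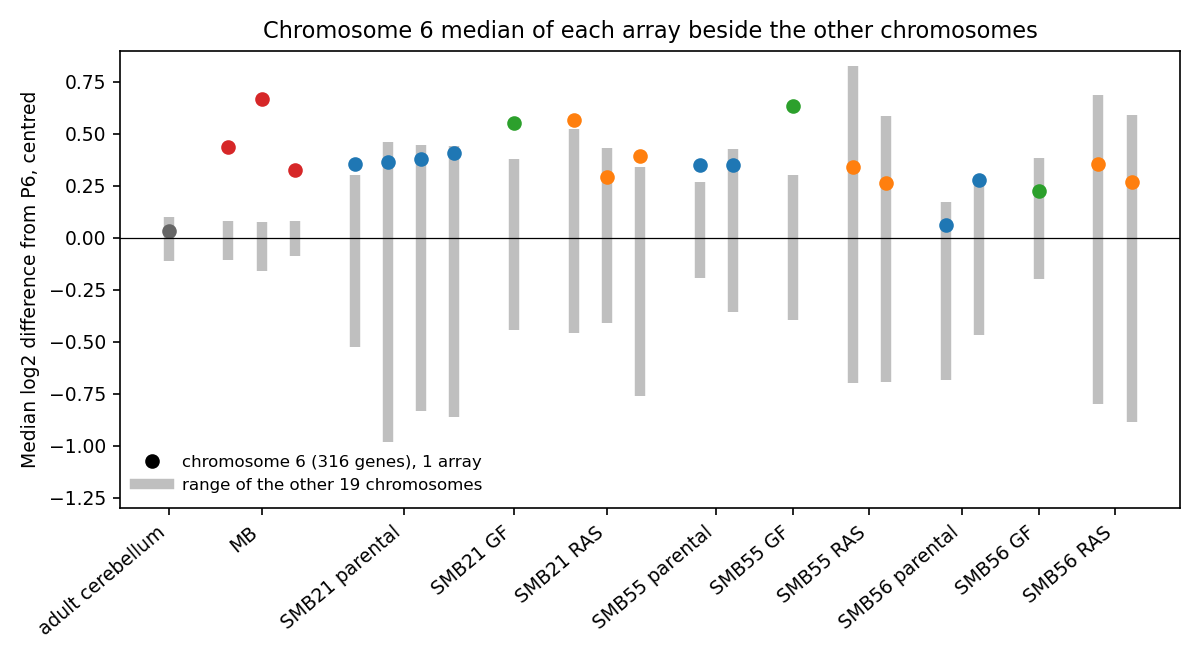
Median centred log2 difference from the P6 mean of the 316 chromosome 6 genes, 1 point per array, by group along the horizontal axis, with a grey bar for the range of the medians of the other 19 chromosomes in that array. The 3 MB points, at 0.33 to 0.67, lie well above their grey bars, which end at 0.08. In the cultures the bars are wider, and most chromosome 6 points lie near or inside their upper ends, above them in 7 of 18 cultures. The point of SMB56 parental replicate 1, at 0.06, lies lower within its bar, which runs from -0.69 to 0.17.

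The parental lines also had chromosome 6 above 0, but there it was 1 of several chromosomes that stood away from the rest. SMB21 parental arrays had shifts of 0.36, 0.36, 0.38 and 0.41 (mean 0.38 ± 0.02, SD, n = 4), and chromosome 6 ranked 1, 3, 4 and 3 among the 20. In the same arrays chromosome 13 was lowest, at -0.53 to -0.98. SMB55 parental arrays were at 0.35 and 0.35. SMB56 parental arrays were at 0.06 and 0.28, so the 2 arrays of that line did not share the shift, chromosome 6 ranking 13 of 20 in the first and highest in the second. Over the 8 parental arrays the mean was 0.32 ± 0.11 (SD). The value of SMB56 is 0.28 without its replicate 1 and 0.06 without its replicate 2.

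GF cells of SMB21 and SMB55 had chromosome 6 shifts of 0.55 and 0.63 against P6, above every parental array of their lines, and chromosome 6 was the highest chromosome in both; in the SMB55 GF array 83.9% of the members were above 0. SMB56 GF cells were at 0.23, second highest. RAS cells of SMB21 were at 0.56, 0.29 and 0.39, those of SMB55 at 0.34 and 0.26, and those of SMB56 at 0.36 and 0.27. In the RAS arrays of SMB55 and SMB56 other chromosomes went further from 0 than chromosome 6 did, with chromosome 15 at 0.83 and 0.59 in SMB55 and chromosome X at -0.80 and -0.89 in SMB56. The same held for SMB21 RAS replicate 2, with chromosome 1 at 0.43, and replicate 3, with chromosome 13 at -0.76, but not for replicate 1. Counting all tumors and cultures, chromosome 6 was highest of 20 in 10 of 21 arrays and among the 3 highest in 19 of 21. All of these comparisons share the same 2 P6 arrays.

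Within the tumors the shift ran the whole length of the chromosome. The members were divided in gene order into 10 blocks of 31 or 32 genes, block 1 (Vps50 to Pot1a) at the centromere end and block 10 (Atf7ip to Resf1) at the distal end. In tumor 1 the block medians lay between 0.34 (block 2, Gcc1 to Hipk2) and 0.57 (block 4, Znrf2 to Tgoln1), in tumor 2 between 0.42 (block 1) and 0.96 (block 4), and in tumor 3 between 0.13 (block 2) and 0.50 (block 8, Mkrn2 to Cdca3). Thus 10 of 10 blocks were above 0 in each tumor, and the order of the blocks was not the same in the 3.

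The lines were less even. In SMB21 parental cells block 1 was at or just below the genome, at -0.10, -0.10, -0.04 and -0.06, while block 2 was at 0.43 to 0.45 in the same 4 arrays. Blocks 5 (Tcf7l1 to Pcbp1) to 10 of SMB21 were between 0.31 and 0.65. SMB55 parental cells had block 1 at 0.21 and 0.24 and all 10 blocks above 0 in both arrays. SMB56 parental replicate 1 had 4 blocks below 0, the lowest being block 6 (Snrnp27 to Uba3) at -0.41 and block 1 at -0.40, whereas replicate 2 had only block 1 below 0, at -0.12. Block 1 was thus the lowest block in all 4 SMB21 parental arrays, in the first SMB55 array and in the second SMB56 array.

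**Figure D2:**
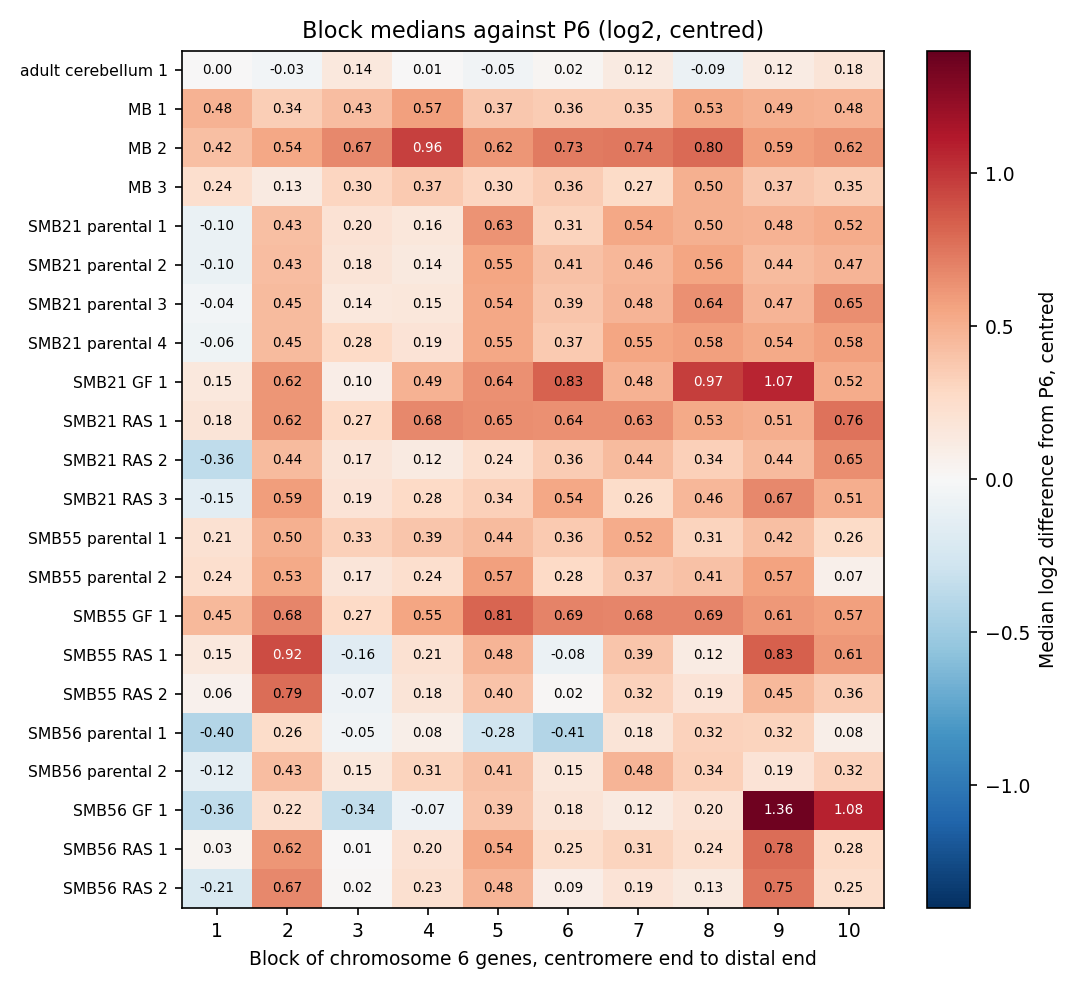
Median centred log2 difference from P6 in 10 blocks of neighbouring chromosome 6 genes (horizontal axis, centromere end to distal end) for each array (rows); the colour scale gives the log2 difference. The 3 MB rows are above 0 in all 10 blocks, block 1 is below 0 in the SMB21 and SMB56 parental rows, and the SMB56 GF row has its highest values, 1.36 and 1.08, in blocks 9 and 10.

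The RAS cells had their own uneven profiles. Block 2 was the highest block in SMB55 RAS cells, at 0.92 and 0.79 against P6, next to block 3 (Parp12 to Chn2) at -0.16 and -0.07. In SMB56 RAS cells block 2 was at 0.62 and 0.67 and block 9 (Gpr162 to Emp1) at 0.78 and 0.75. Replicates of the same line and treatment thus resembled each other in these blocks, and SMB21 RAS replicates differed more, with block 1 at 0.18, -0.36 and -0.15.

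The sharpest feature along the chromosome was in the GF cells of SMB56. Against the parental cells of their own line, the 247 members from Vps50 to Pex5 had a median of -0.08, and the 69 members from Lpcat3 to the distal end had a median of 1.13, a difference of 1.21 on the log2 scale. With no level set, over all chromosome 6 genes on the array, the difference was 0.33. Of the distal 69 genes 64 were above 0 and 39 (56.5%) were above 1, compared with 8.91% of the 247 other members and 8.47% of 5654 genes on other chromosomes. The step falls between neighbouring genes. On the proximal side the last 5 members, Rimklb, Slc2a3, Foxj2, Necap1 and Pex5, were at -0.17, 1.17, -0.27, -0.03 and -0.54. On the distal side the first 5, Lpcat3, Emg1, Phb2, Grcc10 and Tpi1, were at 2.97, 1.10, 1.97, 1.56 and 2.71. The next 5, Usp5, Cdca3, Gpr162, Ptms and Mlf2, were at 1.92, 1.80, 1.92, 1.41 and 2.84. Of these 15 genes only Slc2a3, the glucose transporter GLUT3, broke the pattern.

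The highest genes of the distal segment in SMB56 GF cells were Tnfrsf1a at 3.65, Resf1 at 3.01, Lpcat3 at 2.97, Mlf2 at 2.84 and Tpi1 at 2.71. Tnfrsf1a is the TNF receptor, Lpcat3 a phospholipid acyltransferase of membranes, and Tpi1 the glycolytic enzyme triosephosphate isomerase. Cyclin D2 (Ccnd2) was at 2.21 and the glutathione transferase Mgst1 at 2.41. Among the known cell cycle and glycolysis genes of the segment, Gapdh was at 1.09, Ldhb at 0.82, the CDK inhibitor Cdkn1b at 0.68 and the mitotic transcription factor Foxm1 at 0.56. Members of the segment that were not higher were H2aj at -0.04, Atf7ip at -0.19, Plekha5 at -0.63, Sinhcaf at -0.65 and the matrix protein Mgp at -2.59.

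Resf1 shows how far a gene of the segment stood from the line it came from. Its level was 9.54 and 9.38 in SMB56 parental cells, 12.38 in SMB56 GF cells and 9.37 and 9.31 in SMB56 RAS cells. In the tumors and in SMB21 and SMB55 cells it lay between 9.54 and 11.39, so the SMB56 GF array was the highest of all 24. Lpcat3 was at 9.98 in both SMB56 parental arrays, 12.86 in SMB56 GF cells, and 10.41 and 10.71 in the GF cells of SMB21 and SMB55. Tnfrsf1a was at 9.54 and 9.45 in SMB56 parental cells and 13.05 in SMB56 GF cells, and its levels in the GF cells of SMB21 and SMB55, 11.19 and 10.82, were also above those of their parental cells.

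No step of that size was seen elsewhere, though this split was the one that best fitted SMB56 GF cells. Against their own parental cells, it gave a distal minus proximal difference of -0.04 to 0.21 in the other GF and all RAS arrays. Against P6 the difference was 0.29 and -0.08 in parental SMB56 cells, 0.02, -0.12 and 0.04 in the tumors, and 0.40 in SMB21 GF cells. With the split placed where it fitted each array best, the largest difference outside SMB56 GF cells was in SMB56 RAS replicate 2. There it was 0.49 against own parental cells and 0.79 against P6, where SMB56 GF cells were at 1.26. SMB56 GF cells are a single array, and the place of the step was found in these same data, so it has no replicate check and no test. Leaving out either SMB56 parental array left the difference at 1.11 or 1.28.

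**Figure D3:**
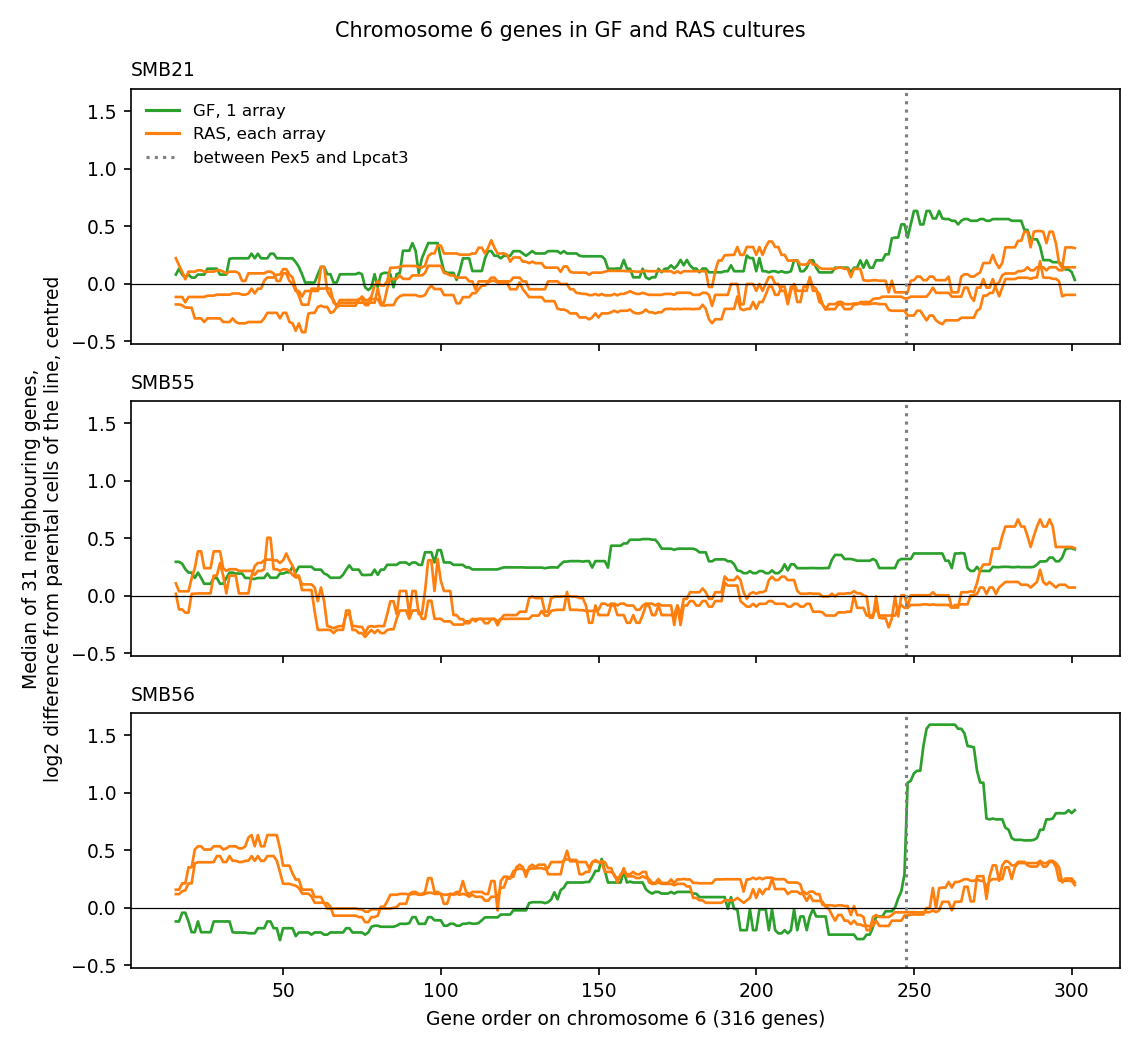
Median centred log2 difference from the parental cells of the same line (vertical axis) over 31 neighbouring chromosome 6 genes, against gene order (horizontal axis), for the GF array (green) and each RAS array (orange) of SMB21, SMB55 and SMB56. The green line of SMB56 climbs at the dotted line between Pex5 and Lpcat3, where the 69 distal genes have a median of 1.13; no other line shows a climb of that size.

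Relative to their own parental cells, GF cells stood higher over chromosome 6 in SMB21 and SMB55, while the GF and RAS values for SMB56 depended on which parental array they were set against. The median difference of GF cells was 0.19 in SMB21, 0.27 in SMB55 and 0.11 in SMB56. For SMB56 it was -0.02 without parental replicate 1 and 0.29 without parental replicate 2. In SMB55 it was the highest of the 20 chromosomes, with 75% of members above 0 and all 10 blocks above 0 (0.17 to 0.41). In SMB21 all 10 blocks were above 0 as well, from 0.03 in block 3 to 0.55 in block 9. In SMB56 blocks 9 and 10 were at 1.19 and 0.85, blocks 5 and 6 at 0.20 and 0.18, and the other 6 blocks at -0.23 to -0.08. RAS cells had medians of 0.14, -0.18 and -0.08 in SMB21 (mean -0.04 ± 0.16, SD, n = 3), 0.04 and -0.08 in SMB55, and 0.21 and 0.15 in SMB56. The SMB56 mean of 0.18 was 0.086 without parental replicate 1 and 0.26 without parental replicate 2. Within SMB56 RAS cells block 2, the block that holds Smo, was the highest, at 0.57 and 0.36. Set directly against the GF cells of their line, RAS cells had a mean chromosome 6 median of -0.24 in SMB21, -0.30 in SMB55 and 0.11 in SMB56.

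Counted gene by gene, 205 of 316 members had all 3 tumors above both P6 arrays and 26 had all 3 below, against 30.8% and 27.4% of all genes above the level. For the 8 parental arrays the counts were 127 above both P6 arrays and 20 below, where 26.2% and 13.7% of all genes above the level were. With each array centred they were 106 and 31, and without SMB56 parental replicate 1 they were 170 and 21. The shares of all genes were not counted in these alternative settings, so the change in the counts is not read as a result about the members. By line, 203, 212 and 149 members were above P6 in all SMB21, SMB55 and SMB56 parental arrays (background 42.8%, 44.4% and 41%). There were 63 members above P6 in all 3 tumors and all 18 cultures (background 7.02%) and 2 below it (background 4.14%). GF cells lay outside the parental range in the same direction in every line for 51 members upward (background 8.88%) and 19 downward (15.3%), and RAS cells for 28 upward (7.71%) and 41 downward (11.1%). These counts follow from the same differences that define the shift and nothing is read from them beyond it.

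The fit across all 12394 genes (limma) gives the same contrasts as counts at a Benjamini-Hochberg adjusted p under 0.05, printed here without reading anything from them. Against P6, 65 members were higher and 6 lower in MB (4.3% and 6.68% of all genes, 5.61% and 5.04% of those above the level), and 98 higher and 14 lower in parental SMB cells (14.6% and 11%, 18.7% and 8.83%). Against parental cells, 28 members were higher and 8 lower in GF cells (3.99% and 4.96%, 4.82% and 7.6%), and 60 higher and 81 lower in RAS cells (14.1% and 17.9%, 16.2% and 25.8%).

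Smo itself was higher in the tumors and parental lines than in either cerebellum. Its log2 level was 10.31 and 10.15 in P6, 9.79 in the adult, and 10.79, 11.68 and 11.07 in the 3 tumors. SMB21 parental cells were at 11.56, 11.79, 11.54 and 11.49, SMB55 at 11.30 and 10.90, and SMB56 at 11.21 and 11.37. GF cells were at 11.19, 11.07 and 10.63 in SMB21, SMB55 and SMB56, and RAS cells at 10.41, 10.80 and 10.90, at 10.15 and 10.07, and at 9.84 and 10.09. All 3 tumors and all 8 parental arrays were above both P6 arrays, and within each line every RAS array was below every parental array. Relative to P6 and centred on the genome, Smo was 0.94 higher in MB, about as much as in parental cells at 0.96, and RAS cells were 0.98 below parental cells on the mean of the 3 lines (-0.98).

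Atoh1 was high in tumors and parental cells and low in RAS cells. It was at 10.33 and 10.23 in P6, 6.58 in the adult, and 12.60, 11.25 and 12.71 in the tumors. SMB21 parental cells were at 12.89, 12.67, 12.56 and 12.39, SMB55 at 12.56 and 11.79, and SMB56 at 12.97 and 12.24. GF cells of SMB21 and SMB56 were at 6.28 and 6.47, near the adult cerebellum, whereas GF cells of SMB55 were at 11.19. RAS cells were at 6.71, 5.66 and 5.40, at 5.67 and 5.77, and at 5.76 and 7.63. No RAS array overlapped any parental array, and the mean centred difference of RAS from parental cells was -6.27, while that of GF cells was -6.27, -0.92 and -6.04 in SMB21, SMB55 and SMB56.

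Hk2, the hexokinase that commits glucose to glycolysis and a known Hedgehog target in granule neuron precursors, was the member farthest above P6. It was at 8.10 and 8.20 in P6, 9.32 in the adult and 11.73, 11.87 and 12.98 in the tumors. SMB21 parental cells were at 11.21, 12.09, 12.27 and 12.01, SMB55 at 10.20 and 11.42, and SMB56 at 11.47 and 11.35. GF cells were at 12.15, 11.54 and 10.97, and RAS cells ran from 9.11 in SMB55 replicate 2 to 11.78 in SMB56 replicate 2. All tumors and cultures were above P6, by 4.03 in MB and 3.08 in parental cells after centring. Ccnd2, which drives entry into S phase, was at 13.54 and 13.33 in P6 and at 13.96, 14.06 and 14.16 in the tumors. In parental cells it was at 13.26 to 13.35 in SMB21, 13.68 and 13.36 in SMB55, and 13.63 and 11.77 in SMB56. It was higher in the tumors than in P6 and overlapped P6 in the lines, and the second SMB56 array was the lowest culture.

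**Figure D4:**
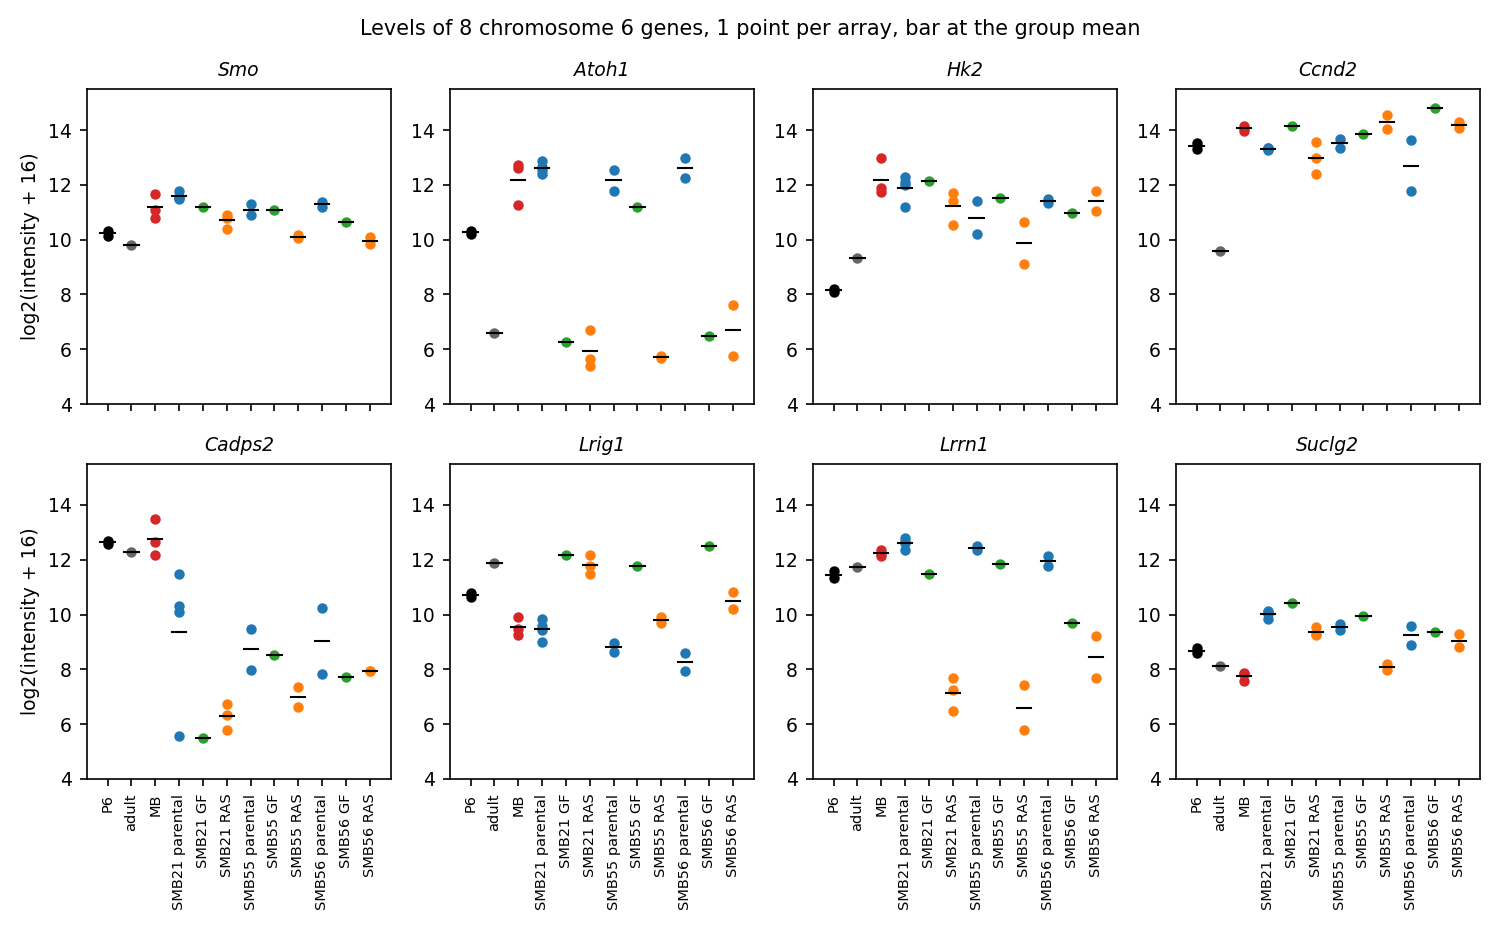
Levels as log2(intensity + 16) of 8 chromosome 6 genes (vertical axis) by group (horizontal axis), 1 point per array with a bar at the group mean. Atoh1 is at 11.25 or above in tumors and parental cells and at 7.63 or below in RAS cells, and Cadps2 is above 12 in cerebellum and tumors and lower in every culture.

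Other members moved with tissue and culture in ways unlike the chromosome median. After Hk2 and Atoh1, the members highest in MB, here and below among those whose arrays did not overlap, were Frmd4b at 1.74, Rad18, a ubiquitin ligase of DNA damage tolerance, at 1.64, Sinhcaf, a subunit of the Sin3 histone deacetylase complex, at 1.48, and Brpf1, a chromatin reader, at 1.45. Rad18 was at 7.36 and 7.5 in P6 and at 8.79, 9.55 and 8.91 in tumors, and no culture was below 8.21. The members lowest in MB were Igf2bp3, an RNA-binding protein, at -2.94, Ptprz1, a receptor phosphatase of glia and progenitors, at -2.52, Timp4, an inhibitor of metalloproteinases, at -2.30, Gng11 at -2.07, Cav1, the caveola coat protein, at -1.45, and Skap2 at -1.28. In the parental lines the highest after Hk2 were Mthfd2, a mitochondrial enzyme of folate metabolism, at 2.80, Asns, asparagine synthetase, at 2.25, Atoh1, Tulp3, a protein of the primary cilium, at 2.00, and Camk1, a calcium-dependent kinase, at 1.75. Among members whose arrays did not overlap P6, the lowest were Cadps2, a regulator of secretory vesicles in granule cells, at -3.73, Gng11 at -3.58, Lrig1, an inhibitor of EGF receptor signalling, and Rimklb, both at -2.02, Abcg2, a drug efflux transporter, at -1.86, and Srgap3 at -1.83. Mgp at -3.05, Timp4 at -2.25 and Ptprz1 at -2.06 were also below Lrig1 on the mean but overlapped P6.

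With growth factors, among members whose arrays did not overlap in any line, those that stood highest over their parental cells were Tmem176a at 3.45, Lrig1 at 3.39, Tnfrsf1a at 2.30 and Timp4 at 2.27, and the lowest were Atoh1 at -4.41, Dennd11 at -1.60, Lrrn1, a neuronal membrane protein, at -1.24 and Eif4e3 at -0.999. Ptprz1 at 3.00, Skap2 at 2.61, Gng11 at 2.55 and Bhlhe40 at 2.50 were high as well, and Cadps2 at -1.72 and Gpr85 at -1.31 low, but overlapped in at least 1 line. In RAS cells, by the same rule, the highest were Akr1b8, an aldo-keto reductase, at 4.15, Tmem176a at 3.58, Bhlhe40, a transcriptional repressor of the clock and stress responses, at 3.31 and Creb3l2 at 3.25, with Mgp at 4.30 but overlapping in at least 1 line. After Atoh1 the lowest were Lrrn1 at -4.85, the synaptic vesicle protein Syn2 at -2.51 and Dennd11 at -2.37. Lrrn1 was at 12.36, 12.63, 12.79 and 12.66 in SMB21 parental cells and at 7.25, 6.49 and 7.67 in SMB21 RAS cells. It was at 12.50 and 12.37 in SMB55 parental cells and 5.78 and 7.42 in their RAS cells, and at 11.76 and 12.13 in SMB56 parental cells and 7.67 and 9.23 in their RAS cells. The 2 treatments share the parental arrays.

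Grouped by role, 14 members were on a list of cell cycle and chromatin genes (1 of them, Suclg1, is a citric acid cycle enzyme), and 13 of the 14 were above 0 in MB, with a centred median of 0.69 beside 0.48 for all members. In parental cells 11 were above 0 (median 0.49, all members 0.31) and in RAS cells against parental 4 were (median -0.34, all members 0.02). Foxm1 was at 7.61 and 7.29 in P6, 8.55, 8.90 and 8.66 in tumors, and 8.48 to 9.09 in parental cells. Ezh2, the histone methyltransferase of the Polycomb complex, was at 11.67 and 11.62 in P6 and at 12.41, 12.03 and 12.43 in tumors. Mcm2, a subunit of the replicative helicase, was 0.79 higher in MB and 0.39 higher in parental cells, and Mad2l1, of the spindle checkpoint, 0.66 and 0.16. Cdkn1b, which stops the cycle, was 0.58 higher in MB and at -0.18 in parental cells.

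The 7 members on the list of RAS and growth factor signalling genes did not follow the chromosome in tumors, with a median of -0.60 and only 2 above 0. Their median was -1.18 in parental cells, 2.03 in GF cells and 1.21 in RAS cells against parental. Ptn, a heparin-binding growth factor, was at -0.55 in MB. Eps8, an adaptor of the EGF receptor, was at 10.08, 8.35, 9.25 and 8.76 in SMB21 parental cells, 11.57 in SMB21 GF cells and 11.85, 12.14 and 11.13 in SMB21 RAS cells. Braf, Met, Ret and Etv6 are on chromosome 6 as well but their mean levels, 6.71, 5.40, 6.17 and 7.58, lay below the level set for members. The 11 metabolic members had a median of 0.25 in MB, from -1.27 (Mgst1) to 4.03 (Hk2). The 5 neuronal members had a median of 0.18 in MB and -0.52 in parental cells. The 6 members on the list of microglia, vessel and other host cell genes had a median of -0.17 in MB and -0.34 in parental cells, and the 3 imprinted members 0.20 and -0.17. Some genes of the lists were not analysed here.

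SMB cells against tumors is a contrast the choice of members did not name, but it is the difference of the shifts of lines and tumors against P6, which were known when the chromosome was chosen. Its counts over members are therefore a description, and the tests below are those of single genes. At an adjusted p under 0.05 (limma, 1 mean per line against 3 tumors), 30 of 316 members rose and 38 fell, where 12.4% of all genes rose and 8.19% fell. Among genes above the level 16.6% rose and 7.81% fell. The median difference of members was -0.03, beside 0.13 for all genes above the level. With each array centred 23 rose and 66 fell. Which direction held more members depended on single libraries: 22 rose and 14 fell without MB replicate 1, 37 and 25 without MB replicate 2, 19 and 21 without MB replicate 3, and 25 and 16 without either P6 array. The counts were 36 and 27 without SMB56 parental replicate 1, 23 and 23 without its replicate 2, and 26 and 16 without the line SMB56. The members that fell were most frequent in block 1, with 9, and block 4, with 6.

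Of the 11 members on the metabolism list, whose genes were chosen with earlier results known, 5 passed the test, all upward, beside the 16.6% of genes above the level that rose. Their median difference was 0.41, beside 0.13 for all genes above the level. Mthfd2 was at 10.54, 9.75 and 9.30 in tumors and at 11.27 or above in all parental arrays, and rose by 1.94 ± 0.31 (log2, SE; limma adjusted p = 0.00829). Akr1b8 was at 6.12, 5.90 and 5.69 in tumors and at 7.10 or above in parental cells, and rose by 2.05 ± 0.40 (limma adjusted p = 0.015). Asns was at 12.17, 10.19 and 10.23 in tumors and 12.55 or above in parental cells, and rose by 2.10 ± 0.51 (limma adjusted p = 0.0307); the call was lost without either P6 array, without MB replicate 2 (1.76) or 3 (1.78), and without any of the 3 lines. Tpi1 (0.85) and Gapdh (0.39) passed as well, but their calls were lost in 14 and 11 of 25 alternative settings, among them each array centred, either P6 array left out, MB replicate 3, SMB55 parental replicate 2 or SMB56 parental replicate 2 left out, and the line SMB21 or SMB55 left out. Suclg2, a citric acid cycle enzyme outside the list, was at 7.56, 7.82 and 7.88 in tumors and between 8.90 and 10.13 in parental cells, with no overlap, and rose by 1.86 ± 0.20 (limma adjusted p = 0.00231).

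Cadps2 fell farthest, by 3.72 (SE 0.34, limma adjusted p = 0.00121). It was at 13.50, 12.63 and 12.16 in tumors, close to the 12.69 and 12.58 of P6, and at 5.58, 10.31, 10.09 and 11.48 in SMB21, 9.47 and 7.98 in SMB55, and 10.24 and 7.83 in SMB56 parental cells. The groups did not overlap, and the first SMB21 array was far below the other 3. Each line entered the fit as 1 mean, so the SD of 2.60 between the SMB21 arrays is not part of the SE. Srgap3, a GTPase-activating protein of neuronal migration, fell by 1.95 (SE 0.32, limma adjusted p = 0.00849), Pdzrn3 fell by 1.80 (SE 0.37, limma adjusted p = 0.0179), and Casd1, a sialic acid acetyltransferase, fell by 1.71 (SE 0.32, limma adjusted p = 0.0133). The Pdzrn3 call was lost without the line SMB56, where the difference was -1.55. Of 4 Hedgehog and precursor members only Ccnd2 passed, falling by 0.88 (SE 0.21, limma adjusted p = 0.0279). That call was lost without either P6 array, any 1 of the tumors, SMB56 parental replicate 1 or SMB55 parental replicate 2. Smo (0.14, SE 0.24, limma adjusted p = 0.701) and Atoh1 (0.28, SE 0.38, limma adjusted p = 0.632) did not pass. Of 5 neuronal members 1 rose and 2 fell, with a median difference of -0.56. The 1 that rose was Camk1, by 1.77 (SE 0.29, limma adjusted p = 0.00884).

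Between adult and P6 cerebellum the shares of members that changed were close to those of other genes above the level. With 1 adult array, whose spread is assumed to be like that of the other groups, 26 members rose and 50 fell at an adjusted p under 0.05 (limma), where 8.85% and 10.3% of all genes and 7.05% and 17.6% of genes above the level did. Without P6 replicate 1 the counts were 11 and 26, and without replicate 2 they were 12 and 26. Of the 14 members on the cell cycle and chromatin list 9 fell: Foxm1, Mcm2, Mad2l1, Cdca3, Ncapd2, Rad51ap1, Ccnd2, Ezh2 and Recql. Recql was no longer called without either P6 array, and Foxm1 (-1.68) fell to -0.34 and lost its call when probe sets of a gene were averaged. Cdca3, which promotes entry into mitosis, was at 11.53 and 11.55 in P6 and 6.02 in the adult, a fall by 5.52 (SE 0.31, limma adjusted p = 6.87e-05). Rad51ap1, of homologous recombination, fell by 4.95 (SE 0.23, limma adjusted p = 3.41e-05), Ezh2 fell by 4.02 (SE 0.20, limma adjusted p = 4.2e-05) and Ccnd2 fell by 3.85 (SE 0.31, limma adjusted p = 0.00036). Suclg1, the citric acid cycle enzyme on that list, rose by 0.64 (SE 0.14, limma adjusted p = 0.0201), a call lost without either P6 array.

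Atoh1 fell by 3.70 from P6 to adult (SE 0.57, limma adjusted p = 0.00538). The members that rose most were Bhlhe40 by 2.81, Ahcyl2, a regulator of ion transport, by 2.51, Tprkb by 2.44 and Washc2, of endosomal sorting, by 2.30. Their SEs were 0.41, 0.31, 0.32 and 0.33, and their limma adjusted p-values 0.00417, 0.00219, 0.00283 and 0.004. The Bhlhe40 call was lost without SMB55 parental replicate 1, which enters the shared estimate of spread. Ldhb, the lactate dehydrogenase subunit of oxidative tissue, was at 12.28 and 12.49 in P6 and 13.83 in the adult, and rose by 1.44 (SE 0.20, limma adjusted p = 0.0037).

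RAS cells against GF cells of the same lines is likewise the difference of 2 shifts that were known when the chromosome was chosen, so its counts over members are a description. At an adjusted p under 0.05 (limma), 14 members rose and 53 fell, where 5.7% and 5.45% of all genes and 7.1% and 7.3% of genes above the level did. The RAS and GF arrays are those whose shifts against parental cells are given above. Without SMB55 GF cells 4 rose and 22 fell, without SMB56 GF cells 5 rose, and without SMB55 RAS replicate 1, 9 rose. The members that fell were most frequent in blocks 6, 8, 9 and 10, with 7, 9, 11 and 8. Block 7 held 3, and blocks 1 to 5 held 2 to 4 each. Since each line has 1 GF array, that array's profile, including the distal segment of SMB56, enters every such value. The fit counts each array as 1 sample, so its p-values do not take the line as the unit.

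Of the 14 members on the cell cycle and chromatin list 7 fell between GF and RAS cells, Suclg1 among them, and none rose. Cdca3 was at 12.85, 12.35 and 13.61 in GF cells of SMB21, SMB55 and SMB56 and at 10.65, 11.37 and 11.57, at 10.75 and 10.60, and at 11.43 and 11.16 in their RAS cells. No RAS array reached any GF array, and the fall was by 1.86 (SE 0.26, limma adjusted p = 0.00127). Rad51ap1 fell by 1.45 (SE 0.25, limma adjusted p = 0.00342), Ncapd2, a condensin subunit, fell by 1.21 (SE 0.24, limma adjusted p = 0.0078), and Cdkn1b fell by 0.89 (SE 0.17, limma adjusted p = 0.00603). Mcm2 and Mad2l1 each fell by 0.71 and Suclg1 fell by 0.62, and they were no longer called without SMB55 GF cells (-0.54, -0.56 and -0.48). Smo fell by 0.69 (SE 0.14, limma adjusted p = 0.00853), a call lost without SMB55 GF cells (-0.55).

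Lrrn1 fell by 3.66 from GF to RAS cells (SE 0.58, limma adjusted p = 0.00243) and Syn2 fell by 2.56 (SE 0.30, limma adjusted p = 0.000418). Syn2 was at 9.22, 9.15 and 8.83 in GF cells and at 6.03 to 7.36 in RAS cells. Mlf2, of the distal segment, fell by 1.86 (SE 0.45, limma adjusted p = 0.0181), a call lost without SMB56 GF cells (-1.48). Lrig1 fell by 1.4 (SE 0.33, limma adjusted p = 0.0173), a call lost without SMB55 or SMB56 GF cells (-1.35 and -1.03). Atoh1 did not pass (-1.86, SE 0.79, limma adjusted p = 0.133), with the 3 GF arrays at the 6.28, 11.19 and 6.47 given above.

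The members that rose most from GF to RAS cells were Mgp, Akr1b8, Pdzrn3, Creb3l2 and C1galt1. Pdzrn3, a ubiquitin ligase, was at 10.15, 7.79 and 7.51 in GF cells, at 11.54, 11.37 and 11.14 in SMB21, 12.46 and 12.18 in SMB55, and 10.08 and 10.02 in SMB56 RAS cells, and rose by 2.73 (SE 0.45, limma adjusted p = 0.00301). C1galt1, which starts mucin-type sugar chains, rose by 2.01 (SE 0.32, limma adjusted p = 0.00243). Creb3l2 rose by 2.24 (SE 0.48, limma adjusted p = 0.0105) and lost the call without SMB55 GF cells (1.94). Akr1b8 rose by 3.07 (SE 0.76, limma adjusted p = 0.0195) and lost it without SMB55 or SMB56 GF cells (2.18 and 3.06). Mgp, an inhibitor of calcification made by vessels and connective tissue, rose by 5.34 (SE 1.54, limma adjusted p = 0.0379); the call was lost without SMB55 or SMB56 GF cells (4.26 and 5.30), SMB21 RAS replicate 1 (4.89) or either SMB55 RAS array (5.46 and 5.03). The 4 vessel markers were at 7.31 to 9.00 in SMB21 RAS cells and at 5.58 to 5.92 in the other RAS cells, and their part in the Mgp result was not tested.

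Over the chromosome as a whole SMB21 and SMB55 were close, and SMB56 was lower on the mean of 2 arrays that differed from each other. The median difference was 0.05 for SMB21 less SMB55, 0.24 for SMB21 less SMB56 (72.8% of members above 0) and 0.19 for SMB55 less SMB56 (69.9%), with 10 of 10 blocks above 0 in both pairs with SMB56. The SD of array medians within groups was 0.10 (12 degrees of freedom), and SMB56 replicate 1 less replicate 2 was -0.24, as large as the gap between lines. At an adjusted p under 0.05 (limma), 14 members were higher and 13 lower in SMB21 than in SMB55 (3.04% and 3.11% of all genes, 4.54% and 3.87% of those above the level), or 24 and 11 with each array centred. Against SMB56, 6 were higher and 2 lower in SMB21 (0.339% and 0.428%, 0.519% and 0.469%), or 15 and 2 centred. Between SMB55 and SMB56 limma called 0 higher and 0 lower (0.363% and 0.178%, 0.352% and 0.251%). These counts rest on few arrays, with 2 parental arrays each in SMB55 and SMB56, and they changed when 1 array was left out. The ranges are given at the end. They come without the shares of all genes called in the same settings, so nothing about the members is read from them.

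Iqsec1, a guanine nucleotide exchange factor of synapses, was at 9.90, 9.76, 10.10 and 9.82 in SMB21 and 8.05 and 8.22 in SMB55 parental cells, higher in SMB21 by 1.76 (SE 0.20, limma adjusted p = 0.00112). Lmcd1, a transcriptional cofactor, was at 8.97, 8.5, 7.68 and 7.69 in SMB21 against 11.02 and 11.32 in SMB55 (-2.96, SE 0.39, limma adjusted p = 0.00201). Neither pair of groups overlapped. Ptprz1 (-5.47, SE 1.31, limma adjusted p = 0.0345) and Tspan12 (-4.49, SE 0.95, limma adjusted p = 0.0197) were farther below SMB55 than Lmcd1, also without overlap. In both genes SMB21 replicate 1, at 8.55 and 8.84, stood above the other SMB21 parental arrays, at 5.38 to 5.51 and 4.83 to 5.49. Abcg2 was at 7.90, 7.75, 7.34 and 7.37 in SMB21 parental cells, 8.96 and 8.91 in SMB55, and 10.02 and 10.30 in SMB56. It was lower in SMB21 than in SMB56 by the fit (-2.57, SE 0.28, limma adjusted p = 0.00284). In RAS cells of all 3 lines Abcg2 was at 11.21 to 12.43, above all parental arrays. Mrps35, a mitochondrial ribosomal protein, was 1.11 higher in SMB21 than in SMB56 (SE 0.16, limma adjusted p = 0.0131), a call lost without SMB21 parental replicate 3 (1.09). Lmcd1 was also lower in SMB21 than in SMB56 (-2.51, SE 0.39, limma adjusted p = 0.0187), a call lost without SMB21 parental replicate 3 or 4.

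The level that defines the members bears on the size of the shifts. The members just inside it were Atf7ip and Zfp777, at means of 8.503 and 8.504, and Mitf at 8.52, with centred differences between MB and P6 of 0.86, 0.84 and 0.04. Just outside were Nap1l5 at 8.48 and Tes and Impdh1 at 8.49, with -0.24, -1.16 and 0.26. The mean is taken over arrays of which 21 of 24 are tumors or cultures, so genes higher there pass more easily; the part of this in the shifts was not tested. The 410 chromosome 6 genes below the level had shifts of 0.02, 0.05 and 0.02 in tumors 1, 2 and 3 when centred on all genes below the level, and between -0.03 and 0.04 in the cultures.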

How the data were processed

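The deposited values are Affymetrix probe set intensities on a linear scale (9.98 to 37842, none missing), as the authors deposited them; the summarisation and normalization behind them are not given in the sources used here. Of 22690 probe sets, 20393 had 1 gene symbol, 691 several and 1606 none; symbols come from the platform annotation, and chromosome and gene order from the RefSeq gene table, which matched 12370 of 12394 genes. From the deposited intensity the log2 of intensity + 16 was taken; differences on that scale understate changes of dim genes. Tests used limma 3.58.1 (R 4.3.3) over all genes with Benjamini-Hochberg adjustment. The tissue fit had 9 values (2 P6, 1 adult, 3 MB, 3 parental line means). The culture fit had 18 arrays, with treatment and line as terms. It counted each array as 1 sample, so its p-values do not take the line as the unit. Line pairs came from a fit of the same 18 arrays with a mean for each line and treatment. The spread in that fit is the spread between repeat arrays of the same line and treatment. The fits were tested on simulated data, where the culture fit first missed the required share of recovered genes and the requirement was then lowered. Medians and figures used Python 3.11.15. The number of arrays limits the precision. The members and lists were chosen with earlier results of these data known. Genes named were a set list, the highest and lowest members per contrast whose groups do not overlap (6 and 6 for tissues, 4 and 4 for cultures and tested contrasts), members called on a gene list, and neighbours of the level, the blocks and the step; genes of the step and of the lists were chosen after their values were seen.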

Additional observations from a re-analysis of the deposited data

Results flagged for a closer look

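In SMB21 parental cells, the only group of 4 arrays, 70 values were checked for 1 array far from the other 3, and 7 stood apart; chance alone flags about 1 in 20 such groups. In 6 of the 7 the array was replicate 1, which also differs from the others over the whole genome. Its block 5 median against P6 was 0.63, where the others were at 0.54 to 0.55. Magi1 was at 9.49 (others 10.67 to 10.81), Ptprz1 at 8.55 (others 5.38 to 5.51), Syn2 at 10.06 (others 9.11 to 9.20), Tmem176a at 8.82 (others 7.14 to 7.34) and Tspan12 at 8.84 (others 4.83 to 5.49). Tnfrsf1a was lower in replicate 2, at 9.25, than in the others, at 9.35 to 9.37.

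In 3 blocks every SMB56 RAS array lay above the mean of its 2 parental arrays and every SMB55 RAS array below that of its own; the difference between the lines was not tested. The 2 SMB56 parental arrays differ in these blocks (replicate 1 less replicate 2 is -0.25, -0.68 and -0.64). Against P6 the second was at 0.31 in block 4, above the RAS arrays at 0.20 and 0.23, and at 0.15 in block 6, between them at 0.25 and 0.088. In block 4 SMB56 was at 0.10 and 0.18 and SMB55 at -0.19 and -0.20, means 0.34 apart. In block 5 the values were 0.37 and 0.28 against -0.05 and -0.12, 0.41 apart, and in block 6 they were 0.25 and 0.21 against -0.10 and -0.17, 0.37 apart.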

How the results depend on the processing

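The direction of the chromosome 6 shift in the tumors was kept under every setting run, from 0.38 to 0.55 when 1 array was left out, but its size depends on the level filter. With no level filter it was 0.15 in MB, 0.089, 0.068 and 0.020 in SMB21, SMB55 and SMB56 parental cells, 0.061 and 0.12 in SMB21 and SMB55 GF cells and 0.039 in SMB56 RAS cells, and the step in SMB56 GF cells was 0.33; the cause was not tested, beyond that 410 dimmer genes then enter. Not centred, the shift was 0.54, 0.48 and 0.31 in SMB21, SMB55 and SMB56 parental cells, -0.15 in SMB21 RAS cells and -0.10 in the adult, which was at -0.14 (-0.135) when centred on all genes. As a mean over members it was 0.25 in SMB21 parental, 0.33 in SMB21 GF, 0.092 in SMB21 RAS, 0.24 in SMB56 GF and 0.29 in SMB56 RAS cells. Leaving out 1 array gave 0.062 to 0.28 for SMB56 parental and -0.023 to 0.29 for SMB56 GF cells.

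Counts of called members (higher, then lower) ranged, when 1 array or line was left out, from 8 to 82 and 0 to 12 for MB against P6, 24 to 118 and 2 to 15 for SMB against P6, 19 to 37 and 14 to 41 for SMB against MB, 11 to 30 and 26 to 60 for adult against P6, 10 to 32 and 2 to 12 for GF against parental, 4 to 20 and 22 to 58 for RAS against GF, 4 to 27 and 1 to 17 for SMB21 against SMB55, 0 to 40 and 1 to 9 for SMB21 against SMB56, and 0 to 20 and 0 to 4 for SMB55 against SMB56. With each array centred, 102 were higher in MB than in P6, 66 lower in SMB than in MB, and 24 and 15 higher in SMB21 than in SMB55 and SMB56; centred on the genes above the level, 31 parental members lay below P6 without overlap. Testing only genes above the level gave 12 higher in SMB21 than in SMB56. Line as a random block left 1 lower in MB. From 9 means, 51 were higher and 20 lower in GF, and 27 higher in RAS than in GF. The shares of all genes in these alternative settings are not given here. The counts therefore show only how far the calls depend on the arrays and settings used.

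The replicate numbers were not taken to pair samples: correlations of same-numbered deviations were -0.23 to 0.02 for RAS and parental cells, -0.03 and 0.04 for P6 and MB, -0.10 to 0.07 for SMB21 parental with each other line, and 0.53 for the 2 arrays of SMB55 and SMB56 parental cells, which is 1 value over 2 pairs. A replicate block cut the counts to 3 higher and 2 lower for MB against P6, 9 and 3 for GF against parental, 6 and 16 for RAS against GF, 3 and 2 for SMB21 against SMB55, and 0 and 0 for SMB21 against SMB56.

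Leaving out MB or RAS arrays in the shifts, all alternatives for the step, and the non-overlap counts without a library or centred were added after seeing the data. No called direction reversed; of the values for single genes, 10089 kept their side of the threshold, 312 lost it and 123 gained it.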
